A study of Mus musculus with 2 samples.

Results

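The chromatin remodelling genes were examined in mouse iPSCs, induced pluripotent stem cells made by reprogramming somatic cells. They were taken as the probe sets whose only gene symbol begins with Smarc, Chd, Arid, Brd, Ino80, Baz1, Baz2 or Actl6 (Chd, Arid and Brd followed by a digit), or is Mta1, Mta2 or Mta3. This gave 42 genes on 80 probe sets, of 12393 genes that could be named from a probe set. Each gene was read at its brightest probe set by the mean of the 2 arrays. Of the 42 genes, 38 averaged at least 5 on the log2 scale over the arrays, which is called the level here, and 4 did not. The 2 samples are 1 hybridized and 1 live preparation of iPSCs grown in 2i/serum mESC medium; 2i stands for inhibitors of MEK and GSK3, which keep mouse pluripotent cells naive. The labels name no genotype, strain, clone or age, nor what the hybridized cells were treated with. Each sample was measured on 1 array, so no value has a replicate error, the difference cannot be tested, and precision is limited by the number of arrays. Differences are given as hybridized minus live on the log2 scale and describe these 2 arrays only. The comparison asks how closely the transcript profile of hybridized cells follows that of live cells.

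Chromatin remodellers are protein machines, built around an ATPase of the SNF2 type, that slide, evict or exchange nucleosomes. They fall into families. SWI/SNF complexes (also called BAF and PBAF) open chromatin at enhancers and promoters, CHD proteins carry chromodomains that bind histones and include the ATPase of the NuRD deacetylase complex, ISWI complexes space nucleosomes, and INO80 complexes act on nucleosomes that carry histone variants. In pluripotent cells a form of SWI/SNF called esBAF, with Smarca4, Smarcc1, Arid1a and Actl6a, is known for its part in self-renewal.

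Chromatin remodelling genes were 2-fold apart about as often as genes in general. Among the 38 members 4 reached 2-fold in the direction of the hybridized array (10.5%), beside 8.43% of all 7262 genes compared. In the other direction 3 were at least 2-fold lower (7.89%), beside 15.4% of all genes. Together 18.4% of the members were 2-fold apart, beside 23.8% of all genes, and 17 of the 38 (44.7%) lay within 1.5-fold, beside 52.7%. In bulk RNA such as this, fewer cells that express a gene and less of its RNA per cell cannot be told apart. The median difference was -0.11 over the 38 genes and -0.17 over all genes compared. The share of members that were higher was thus near the background, and the share that were lower was under it, at 3 genes. The 4 higher genes were Smarce1, Chd1, Arid4b and Ino80c, and the 3 lower genes were Smarcd1, Smarca2 and Mta1. None of the 38 was 4-fold apart.

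**Figure D1:**
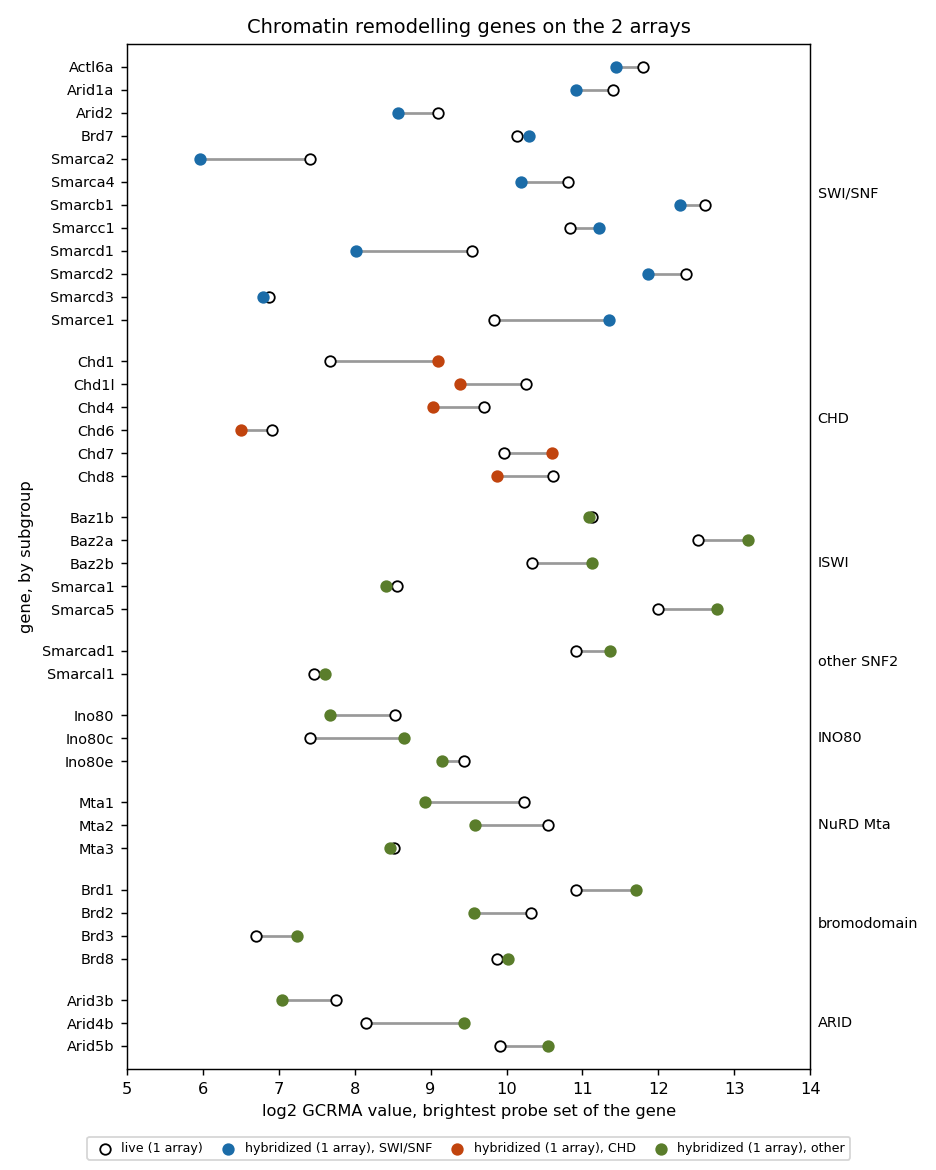
Log2 GCRMA values (x axis) of the 38 chromatin remodelling genes at the level, each at its brightest probe set, by subgroup (y axis); open points are the live array and filled points the hybridized array. The widest gaps are at Smarcd1, Smarca2 and Mta1, where the hybridized point is to the left, and at Smarce1, Chd1, Arid4b and Ino80c, where it is to the right.

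The cells carried the marks of their label on both arrays. The 6 pluripotency genes Nanog, Sox2, Pou5f1, Zfp42, Esrrb and Klf4 read from 10.83 to 13.17 on the hybridized array and from 11.53 to 13.03 on the live one. Of 13 fibroblast markers with a value, 10 were under the level, and of 9 neuronal markers 6 were; log2 of the summed linear values was 12.94 in the hybridized and 13.13 in the live sample for the fibroblast markers, and 11.91 and 11.34 for the neuronal markers. Vim made up nearly all of the fibroblast sum, at 12.92 and 13.07. The other fibroblast markers at the level were Col5a1, at 5.43 hybridized and 7.58 live, and Col1a1, at 4.46 and 6.17. Of those under the level Pdgfrb was the brightest, at 3.62 and 5.22 (-1.60), while Col1a2, Col3a1 and Dcn lay between 2.13 and 2.50. Of the neuronal markers at the level, Stmn2, at 11.62 and 10.35, made up the largest part of the neuronal sum. Nefl read 8.62 and 8.79, and Tubb3 8.14 and 9.67. The fibroblast markers Col1a1 (-1.71) and Col5a1 (-2.15) and the neuronal marker Tubb3 (-1.53) were lower in the hybridized sample, and Stmn2 (1.27) was higher. The part of these markers in the results below was not tested. Control probe sets of Actb and Gapdh showed a rise of 5' relative to 3' signal on the hybridized array, by 2.52 and 1.81 log2 units, and those of Tfrc by 0.50. The 3 control probe sets of 18S ribosomal RNA were lower there, by 1.20 to 1.62 log2 units. The part of these in the results below was not tested either. Hybridization controls, transcripts spiked into the mix put on each array, read lower in the hybridized sample at each of 18 probe sets, by a median of 0.80. Centring on them adds 0.80 to every difference, which makes 13 of the 38 members 2-fold higher and 0 lower, beside 31.8% higher and 2.84% lower of all genes. Every direction below is that of the values as deposited.

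SWI/SNF was represented by 13 genes, 12 of them at the level. Of the 12, 9 (75%) were lower in the hybridized sample, beside 58.5% of all genes compared. There were 1 (8.33%) 2-fold higher and 2 (16.7%) 2-fold lower, beside 8.43% and 15.4% of all genes. The median of the 12 was -0.43. Centred on the hybridization controls, this median was 0.38 and that of all genes 0.64. That centring adds the same 0.80 to every gene, so it cannot change the gap between them. At their brightest probe sets 8 of the 12 (66.7%) lay within 1.5-fold, beside 52.7% of all genes. Among these, Arid1a and Smarcd2 were further apart on other probe sets, as given below.

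The catalytic subunits of SWI/SNF are Smarca4 (Brg1) and its paralog Smarca2 (Brm), of which a complex holds one. Smarca4 (Entrez 20586) read 10.19 on the hybridized array and 10.81 on the live one, a difference of -0.62, and its second probe set at the level differed by -0.49. Smarca2 (Entrez 67155) read 5.96 and 7.41, a difference of -1.45 or 2.73-fold lower. The live array was thus the higher one for both ATPases, on each of the 3 probe sets at the level. Smarca2 was measured at the level on 1 probe set only, shared between transcripts of the gene, and its other probe set read 3.40 and 3.33, near the lower end of the scale.

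Smarcb1, Smarcc1 and Actl6a lay within 1.5-fold between the arrays at their brightest probe sets. Smarcb1 (Entrez 20587), a core subunit that contacts the nucleosome, read 12.28 and 12.61. Smarcc1 (Entrez 20588, BAF155), the scaffold subunit typical of esBAF, read 11.22 and 10.83. Its second probe set was 0.58 higher, so both of its probe sets were above 0. Actl6a (Entrez 56456, BAF53a), an actin-related subunit shared with INO80 and TIP60 complexes, read 11.44 and 11.80, with a difference of -0.36 that was 0.07 on its second probe set. Its paralog Actl6b (BAF53b), the form found in neurons, read 2.13 and 2.26 and was the one SWI/SNF gene under the level.

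The remaining SWI/SNF subunits included the highest and the lowest difference of the 38 members. Smarce1 (Entrez 57376, BAF57), an HMG-box DNA-binding subunit, read 11.35 on the hybridized array and 9.84 on the live one, a difference of 1.51 or 2.85-fold, the highest of the 38. The second probe set of Smarce1 was also higher, by 0.61, which is less than 2-fold. Smarcd1 (Entrez 83797, BAF60a), which links the complex to transcription factors, read 8.02 and 9.54, a difference of -1.52 or 2.87-fold, the lowest of the 38. The other probe set of Smarcd1 lay at 1.94 and 1.96, so the call rests on 1 probe set. The paralogs Smarcd2 (BAF60b) and Smarcd3 (BAF60c) did not reach 2-fold at their brightest probe sets, with values of 11.87 and 12.36 for Smarcd2 and 6.79 and 6.87 for Smarcd3. Smarcd2 was nonetheless lower on all 3 of its probe sets, by 0.49, 0.97 and 1.07 log2 units.

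Of the subunits that define SWI/SNF subtypes, Arid1a (Entrez 93760, BAF250a), the DNA-binding subunit of the canonical BAF complex, read 10.91 and 11.40, a difference of -0.49. On the second probe set of Arid1a the values were 8.35 and 9.98 and the difference was -1.63, past 2-fold in the same direction. Arid2 (Entrez 77044) and Brd7 (Entrez 26992), a bromodomain protein, mark the PBAF form. Arid2 read 8.57 and 9.09, and Brd7 10.30 and 10.14. Arid1a, Arid2 and Brd7 thus lay within 1.5-fold at their brightest probe sets, unlike the PBAF subunit Pbrm1, described with the partner genes below, which was 1.26 higher.

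The CHD group, set by symbol and not by protein domains, held 6 genes, all at the level: Chd1, Chd1l, Chd4, Chd6, Chd7 and Chd8. Their median was -0.54, but the values lay on both sides, with 4 lower and 2 higher in the hybridized sample, and the mean was -0.10. Chd1l, placed here by its symbol only, was the lowest of the 6 at -0.86. Only Chd1 (16.7%) was 2-fold apart at its brightest probe set, beside 23.8% of all genes. Centred on the hybridization controls the median was 0.26, and without the probe sets whose suffix (_x_at, _s_at or _a_at) means that probes match several genes or transcripts, it was -0.12.

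Chd1 (Entrez 12648), which binds methylated histone H3 at active genes and is known to keep the chromatin of pluripotent cells open, read 9.10 on the hybridized array and 7.67 on the live one, a difference of 1.43 or 2.69-fold. The second probe set of Chd1 read 8.04 and 8.50, a difference of -0.46, and the third was 0.52 higher. Its 3 probe sets therefore differed in sign, and their mean difference was 0.50. Chd4 (Entrez 107932, Mi-2beta), the ATPase of NuRD, read 9.03 and 9.70 at its brightest probe set, a difference of -0.67, and its other probe sets differed by 0.01 and 0.17.

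The remaining CHD genes had 1 probe set each. Chd7 (Entrez 320790), an enhancer-bound remodeller mutated in CHARGE syndrome, read 10.60 and 9.97. Chd8 (Entrez 67772), a regulator of Wnt signalling, read 9.87 and 10.61. Chd1l (Entrez 68058), a remodeller of DNA repair activated by poly(ADP-ribose), read 9.39 and 10.25, and Chd6 (Entrez 71389) 6.50 and 6.91. Chd7 was thus the higher of these on the hybridized array and the other 3 were lower there, each by less than 2-fold.

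**Figure D2:**
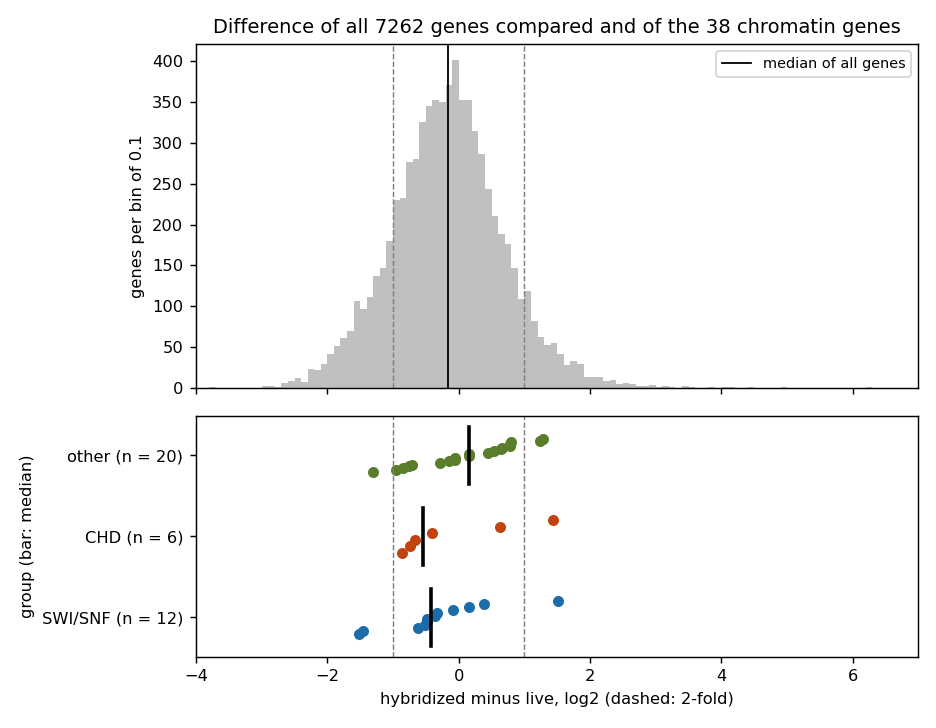
The upper panel counts all 7262 genes compared by their difference, hybridized minus live on the log2 scale (x axis), with their median at -0.17; the lower panel shows each chromatin gene as a point, with bars at the group medians of -0.43 (SWI/SNF, n = 12), -0.54 (CHD, n = 6) and 0.15 (other, n = 20). The 38 genes lie between -1.52 and 1.51, well inside the spread of all genes.

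The other families, 20 genes at the level of 23, had a median of 0.15, with 11 genes higher and 9 lower in the hybridized sample. Of the 20, 2 (10%) were 2-fold higher and 1 (5%) was 2-fold lower, beside 8.43% and 15.4% of all genes. Among the ISWI genes none of 5 was 2-fold apart at its brightest probe set, and the median was 0.66. Smarca5 (Entrez 93762, Snf2h), the main ISWI ATPase, read 12.77 hybridized and 11.99 live, and its paralog Smarca1 (Snf2l) 8.41 and 8.56. Of the Baz subunits, the hybridized sample was higher for Baz2a (TIP5, of the nucleolar NoRC complex), at 13.18 and 12.52, and for Baz2b, at 11.12 and 10.34. Baz1b (WSTF), a partner of Smarca5 at replication sites, was even at 11.08 and 11.13.

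The further probe sets of 3 ISWI genes gave other values. Beside 0.78 at the brightest, Smarca5 differed by -0.29 and 2.59 at its further probe sets. Baz1b differed by 2.07 at its second, where the values were 7.64 and 5.57, and by 0.44 and 1.02 at its probe sets under the level. Baz2a differed by 1.32 and -1.16 at its further probe sets, 2-fold or more in opposite directions. The direction of these genes is therefore that of 1 probe set each.

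The SNF2 ATPases that work outside the large complexes were both slightly higher. Smarcad1 (Entrez 13990), which maintains silent chromatin after replication, read 11.36 and 10.92, and its second probe set was 0.62 higher. Smarcal1 (Entrez 54380), an annealing helicase of stalled replication forks, read 7.61 and 7.46. Counting all 13 ATPases, from SWI/SNF, CHD, ISWI, INO80 and these, 1 (7.69%) was 2-fold higher, 1 (7.69%) was 2-fold lower and the median was -0.41. The 25 members without an ATPase had 3 (12%) higher, 2 (8%) lower and a median of -0.05. Of all genes compared, 8.43% were 2-fold higher and 15.4% lower.

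Members of the INO80 complex went in both directions. The ATPase Ino80 (Entrez 68142) read 7.68 hybridized and 8.53 live, a difference of -0.85, while its probe set under the level differed by 0.85 the other way. The subunit Ino80c (Entrez 225280) read 8.65 and 7.41, a difference of 1.24 or 2.36-fold on its only probe set. Ino80e (Entrez 233875) read 9.15 and 9.44 and was lower on all 3 of its probe sets, by up to 1.07. Ino80b, at 4.60 and 5.20, lay just under the level.

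The Mta proteins, scaffolds that hold the deacetylases of NuRD, were lower in the hybridized sample in each of 3 cases. Mta1 (Entrez 116870) read 8.93 and 10.23, a difference of -1.30 or 2.46-fold on its only probe set. Mta2 (Entrez 23942) read 9.59 and 10.54, a difference of -0.95 just short of 2-fold. Mta3 (Entrez 116871) was nearly even at 8.47 and 8.52, and -0.31 on its second probe set. Centred on the hybridization controls, Mta1 stayed below 0 at -0.50, Mta2 was at -0.15, and Mta3 turned to 0.75.

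Bromodomain proteins read acetylated histones. Brd2 (Entrez 14312) and Brd3 (Entrez 67382), members of the BET family that couple acetylation to transcription, differed in direction: Brd2 read 9.57 and 10.32 in the hybridized and live samples and Brd3 7.24 and 6.70. The second probe set of Brd2 differed by 0.00, and the 3 of Brd3 were all higher, by 0.30 to 1.29. Brd1 (Entrez 223770), a scaffold of histone acetyltransferase complexes, read 11.71 and 10.92. Brd8 (Entrez 78656), a subunit of the TIP60 and p400 complex, read 10.02 and 9.87, and its 4 probe sets were all higher, by 0.15 to 2.73.

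Genes of the ARID DNA-binding family outside SWI/SNF gave 3 at the level. Arid4b (Entrez 94246), a subunit of the Sin3A deacetylase complex, read 9.44 hybridized and 8.15 live, a difference of 1.29 or 2.45-fold. Its second probe set was 1.17 higher. Arid4b was thus the one member 2-fold apart in the same direction on its brightest and its second probe set. The 3 probe sets of Arid4b under the level differed by 0.51, 0.83 and 1.00. They read only 3.06 to 4.25 and were not counted as a repeat. Arid5b (Entrez 71371), a partner of a histone demethylase, read 10.55 and 9.91, and Arid3b (Entrez 56380) 7.04 and 7.75. Arid3a, at 4.20 and 5.05, and Arid5a, at 3.24 and 4.56, were under the level.

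The repeat of a difference within a gene was partial. Of 19 members that had another probe set at the level, 13 (68.4%) had the same sign on both, beside 63.7% of 2720 genes overall. Of the 3 among them that were 2-fold apart on the brightest, Arid4b was again 2-fold apart, Smarce1 was higher by less, and Chd1 had the other sign. The SD of the gap between the brightest and second probe sets, divided by the square root of 2, was 0.63 for the members and 0.73 for all genes. This is a spread between probe sets of the same 2 arrays and holds no error between preparations. In 6 genes, Arid1a, Baz1b, Baz2a, Brd8, Chd1 and Smarca5, the probe sets at the level spanned 1 log2 unit or more. The members' 28 further probe sets at the level included 6 that were 2-fold higher and 4 lower, with a median of 0.12, beside 21.3% higher and 8.37% lower of 4145 such probe sets of all genes, also with a median of 0.12.

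**Figure D3:**
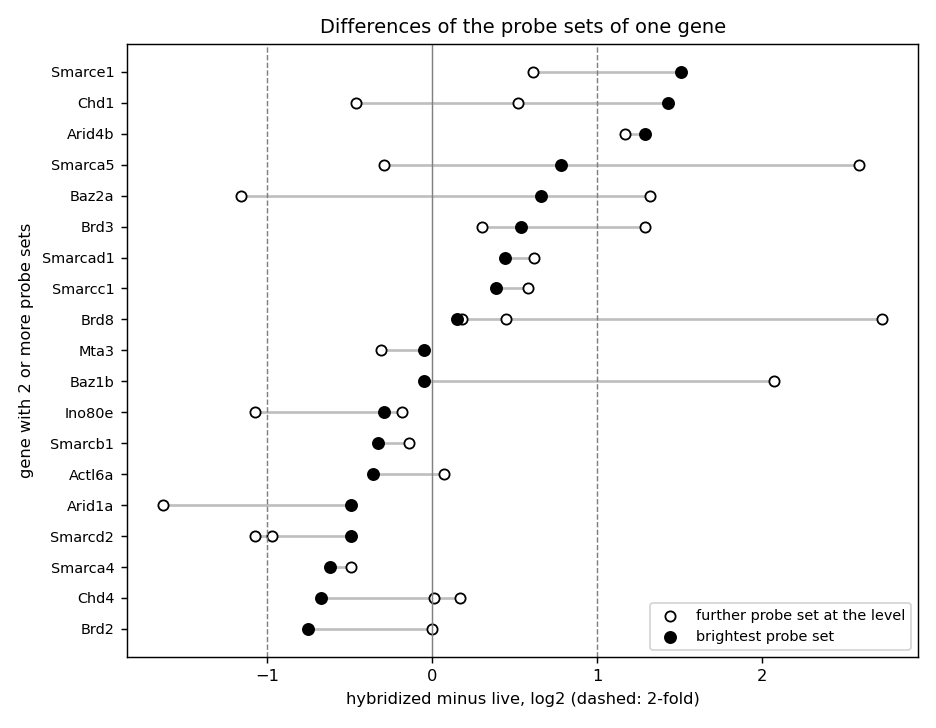
Hybridized minus live difference on the log2 scale (x axis) of each probe set at the level, for the 19 chromatin genes (y axis) with more than one; filled points are the brightest probe sets and open points the others. Arid4b repeats closely at 1.29 and 1.17, whereas Smarca5 spans -0.29 to 2.59 and Baz2a -1.16 to 1.32.

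Partner genes of the same complexes, on a list of 47 that the symbols above do not pick, had 41 with a value and 36 at the level. Of these, 4 (11.1%) were 2-fold higher and 4 (11.1%) lower, beside 8.43% and 15.4% of all genes, and 26 (72.2%) were below 0, beside 58.5%. The median was -0.39. The higher ones were Uchl5, a deubiquitinase bound to INO80 and the proteasome (11.31 against 9.54), Hltf, a SNF2 ATPase of damaged forks (10.36 against 8.91), Pbrm1, the PBAF subunit polybromo (11.49 against 10.23), and Atrx, a SNF2 ATPase that deposits histone H3.3 (11.42 against 10.35). The lower ones were Daxx, the histone chaperone that works with Atrx (8.60 against 10.13), Bptf, the large subunit of the ISWI complex NURF (9.60 against 10.75), Pole3, a histone-fold subunit of the ISWI complex CHRAC (6.76 against 7.91), and Mcrs1, an INO80 subunit (7.69 against 8.73). The ISWI partners on the list, Bptf, Pole3 and Chrac1 (7.65 against 8.34), were all lower, with a median of -1.15. The 5 ISWI members had a median of 0.66. Both medians are at brightest probe sets. No repeat was made for the partners, and Smarca5, Baz1b and Baz2a differed between their probe sets, as given above. The NuRD partners, 8 genes, had none 2-fold apart and 7 (87.5%) below 0, with Hdac1 at 11.36 and 11.97 and Hdac2, its paralog, at 11.74 and 10.99. Of the SWI/SNF partners, Dpf1, Dpf3, Bcl7a, Bcl11a and Bcl11b were under the level.

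Signal and gene size were set beside the differences. Of the 10 members with a mean of 11 or more none was 2-fold apart, beside 6.31% of all genes at that level, while 4 of the 10 members with a mean from 7 to under 9 were, beside 33.1%. Chromatin genes are long: the median span from start to end, in the RefSeq gene table of assembly GRCm38.p6, was 54.1 kb for the 38 members and 22.3 kb for 7251 genes compared that have one. Across genes, which share the arrays and are not replicates, Spearman's rho of span with difference was 0.18 for the members and 0.14 for all. The 19 longer members had a median difference of -0.05 and the 19 shorter -0.33, beside -0.07 and -0.26 for all genes divided at their own median. The part of gene size in the group medians was not tested.

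The promoters of the 2-fold members were looked up because these genes had the largest differences of the members at the level. The arrays measured no promoter, and a motif match is a description only. The sequences are RefSeq's, build GRCm38.p6, 5' to 3' on the gene's strand, from 250 bases before to 50 after the start, and the deposited values name no build of their own. Entries were matched for Smarcd1, Smarca2, Mta1 and Arid4b; Smarce1, Chd1 and Ino80c are named only. Capitals mark 7 motifs on either strand, none of which contains another: the TATA box as TATAAA, the CCAAT box as CCAAT, the GC box as GGGCGG, the ETS motif as CCGGAAG, the YY1 core as ATGGCGG, the NRF1 core as GCGCATGCG and the E-box as CACGTG. Smarcd1 lies at chr15:99702037-99702336 on the plus strand, Smarca2 at chr19:26604910-26605209 on the plus strand, Mta1 at chr12:113098028-113098327 on the plus strand and Arid4b at chr13:14063534-14063833 on the plus strand.
Smarcd1: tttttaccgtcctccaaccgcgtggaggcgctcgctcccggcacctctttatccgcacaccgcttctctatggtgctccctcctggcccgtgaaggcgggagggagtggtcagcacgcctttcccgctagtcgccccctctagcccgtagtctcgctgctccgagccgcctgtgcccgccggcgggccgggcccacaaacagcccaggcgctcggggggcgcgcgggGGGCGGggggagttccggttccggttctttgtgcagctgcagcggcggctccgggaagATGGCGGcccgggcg
Smarca2: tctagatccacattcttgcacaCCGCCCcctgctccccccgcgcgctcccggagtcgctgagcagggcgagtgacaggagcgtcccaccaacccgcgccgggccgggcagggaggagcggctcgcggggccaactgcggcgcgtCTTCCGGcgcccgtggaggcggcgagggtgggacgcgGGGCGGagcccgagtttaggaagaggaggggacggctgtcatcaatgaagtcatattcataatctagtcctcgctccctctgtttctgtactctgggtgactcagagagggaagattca
Mta1: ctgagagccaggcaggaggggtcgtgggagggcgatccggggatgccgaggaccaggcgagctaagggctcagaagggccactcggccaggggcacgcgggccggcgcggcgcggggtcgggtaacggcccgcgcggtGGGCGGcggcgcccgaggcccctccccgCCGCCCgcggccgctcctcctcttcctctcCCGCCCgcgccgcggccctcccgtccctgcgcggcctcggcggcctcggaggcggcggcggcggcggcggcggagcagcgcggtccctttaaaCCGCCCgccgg
Arid4b: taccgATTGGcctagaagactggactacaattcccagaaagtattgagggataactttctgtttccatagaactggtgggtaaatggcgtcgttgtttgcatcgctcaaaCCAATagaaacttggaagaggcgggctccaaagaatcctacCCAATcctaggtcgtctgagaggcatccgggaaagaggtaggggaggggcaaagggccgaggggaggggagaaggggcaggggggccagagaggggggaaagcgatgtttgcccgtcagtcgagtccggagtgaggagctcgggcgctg

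The promoters of the 3 lower genes held the GC box, together with an ETS motif in Smarca2 and a YY1 core in Smarcd1, and that of Arid4b held CCAAT boxes and no GC box. Over 31 members with an entry, 25 (80.6%) held a GC box, beside 68.7% of 5997 promoters of genes compared and 35.9% of 27025 promoters in all. CCAAT stood in 35.5% of the members' promoters, beside 39.8% of those of genes compared and 37.9% of all. The ETS motif stood in 16.1%, 21.3% and 9.12% in the same order, the YY1 core in 9.68%, 9.59% and 4.19%, the TATA box in 9.68%, 6.39% and 14.2%, the NRF1 core in 6.45%, 4.57% and 1.81%, and the E-box in 3.23%, 10.9% and 7.24%. The members' promoters had a median of 26 CG dinucleotides in 300 bases, beside 22 for genes compared and 7 for all promoters; Mta1 had 50 and Arid4b 14.

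Set side by side, SWI/SNF and CHD genes had lower medians than all genes compared, and the other families a higher one, as deposited and in each of the 11 other choices of level, probe set and centring. These groups were 12, 6 and 20 genes on the same 2 arrays, and with 1 array per group the differences between them have no test. With means in place of medians the CHD genes, at -0.10, lay above all genes, at -0.16, while SWI/SNF stayed below at -0.32 and the other families above at 0.12. Adding a constant, as median or control centring does, cannot change this order. All 6 CHD genes were at the level, so limits of 4, none or 5 on each array left their median at -0.54. The same 12 SWI/SNF genes passed the limits of 4 and of 5 on each array, so their median stayed at -0.43. These choices could not change the order for those groups through their own genes. The CHD gap was smallest without suffixed probe sets, at -0.12 against -0.08 for all genes. That of the other families was smallest with no limit, at -0.05 against -0.12. With second brightest probe sets the CHD group was 2 genes, Chd1 and Chd4.

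**Figure D4:**
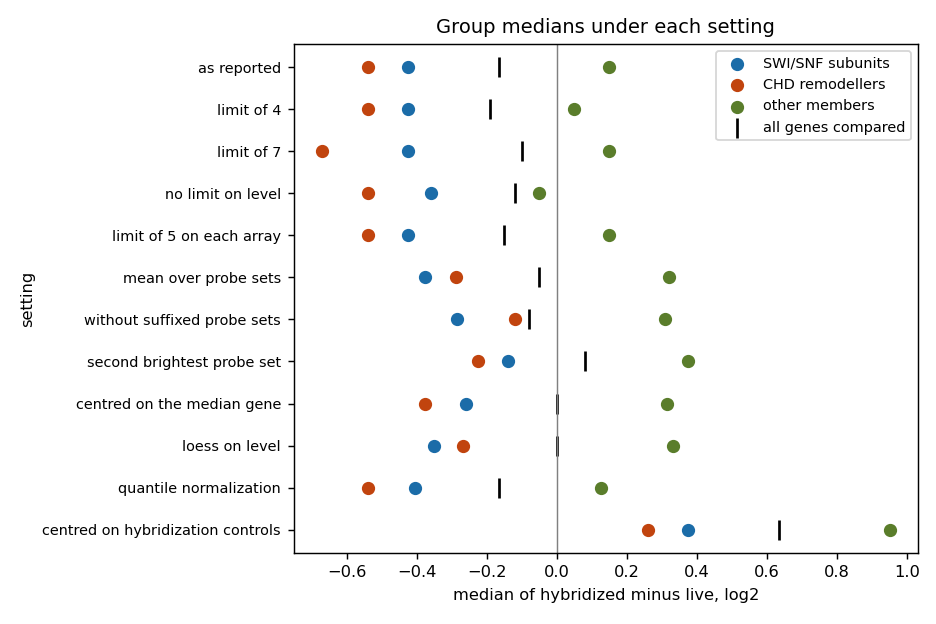
Median difference, hybridized minus live on the log2 scale (x axis), of SWI/SNF, CHD and other chromatin genes and of all genes compared (black bars) under each choice of level, probe set or centring (y axis). The other families lie to the right of the black bar and SWI/SNF and CHD to its left in each row, and centring on the hybridization controls moves every median above 0.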

How the data were processed

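RNA from 1 hybridized and 1 live iPSC sample was isolated in Trizol LS and, after NuGEN Ovation amplification, hybridized as biotin-labelled cDNA, per the labels' protocols. The authors deposited a table of probe set values, taken here as log2 GCRMA values: GCRMA and affy were used, per the submitters' processing notes, and the log base was inferred from the method and the range of 1.02 to 14.24. GCRMA corrects background by base composition, so the lowest values cannot be ranked. The set of arrays normalized jointly is not given in the sources.

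The table has 22690 probe sets. After 64 controls were set aside, the platform annotation gave a single gene for 20380, several for 691 and none for 1555, and only the first were used. All 42 members' symbols matched RefSeq through Entrez IDs. Each gene was read at its brightest probe set; 2-fold apart means a log2 difference of 1 or more in size. With 1 array per group there is no model and no p-value. Named were all 2-fold members, the ATPases and the SWI/SNF subunits, with the rest by their values or counts. For genes with several starts, the first listed promoter was used, and chromosome 18 was not searched. A planned comparison with protein length was not run; gene span, chosen after the data were seen, stands in its place. The members and lists were chosen with earlier results of these data known. The steps recovered known changes in a test on simulated data. Those changes were larger than any member's and lay on every probe set of a gene. Noise was set well under the probe-set spread of 0.73, so the test checks the steps and not the 2-fold calls here. Software was Python 3.11.15, statsmodels 0.14.6 for loess, pandas 2.3.3 and numpy 2.4.6 for tables, scipy 1.17.1 for rank correlation, matplotlib 3.10.9 for plots.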

Additional observations from a re-analysis of the deposited data

How the results depend on the processing

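The alternatives were level limits of 4, 7, none, or 5 on each array; the mean over probe sets, probe sets without suffix, or the second brightest; centring on the median gene, by loess on level (span 0.3), by quantile normalization or on the hybridization controls; thresholds of 1.5-fold and 4-fold; and the mean in place of the median. A median was taken to move when it shifted by more than the probe-set spread of 0.73 divided by the square root of its number of genes.

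The counts of 4 higher and 3 lower members became 13 and 0 with control centring. They were 10 and 11 at 1.5-fold (beside 17.5% higher and 29.9% lower of all genes), and 0 and 0 at 4-fold (beside 1.2% and 1.56%). Elsewhere they stayed within 1.5 times, though not always with the same genes. On second brightest probe sets they were 3 and 2 of 19 members, beside 18.7% higher and 9.04% lower of all genes. Arid4b (1.17), Baz1b (2.07) and Baz2a (1.32) were higher there and Arid1a (-1.63) and Ino80e (-1.07) lower. Of these only Arid4b was also 2-fold apart at its brightest probe set. The median of all members was 0.11 without suffixed probe sets, 0.01 on second probe sets, 0.05 centred on the median gene, 0.038 after loess and 0.69 with control centring. That of SWI/SNF was -0.14 on second probe sets and 0.38 with control centring. That of CHD was -0.12 without suffixed probe sets, -0.23 on second probe sets, 0.26 with control centring and -0.10 as a mean. That of the other families was -0.05 with no limit, 0.32 with probe sets averaged, 0.38 on second probe sets, 0.32 centred on the median gene, 0.33 after loess and 0.95 with control centring. The cause of these moves was not tested, beyond the constant that a centring adds.

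Among single genes, Chd1 turned to -0.46 on its second probe set. Averaged over probe sets, Arid4b (0.96), Chd1 (0.50), Smarca2 (-0.69) and Smarcd1 (-0.77) fell short of 2-fold. All of these but Chd1 had probe sets under the level in the mean. Smarca2 also fell short after loess (-0.99), as did Mta1, Smarca2 and Smarcd1 with control centring. Other members reached 2-fold only in an alternative. Arid1a (-1.06) and Smarca5 (1.03) did when averaged over probe sets, and Baz2a (1.32) without suffixed probe sets. Mta2 (-1.01) did after quantile normalization, and Arid5a (-1.32), under the level, with no limit. Those on second brightest probe sets and the count with control centring are given above. Ino80c stayed 2-fold higher in its 10 alternatives. It has 1 probe set, so the choices of level and probe set could not change its 1.24, and only the centrings could. No paired analysis was possible because each group has 1 sample. Depth does not apply to arrays; with no detection calls used, the level of 5 is a set limit.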
